A study of Bos taurus with 129 samples.

Results

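Whole blood transcripts were compared at day 13 between 2 groups of steers that were treated for bovine respiratory disease (BRD) during a 60 day feeding trial. The 11 libraries were those labelled as day 13 and as diseased, 4 from cattle of the AAC supplement group and 7 from cattle of the INR group, out of 70 libraries of BRD cattle and 59 of healthy cattle in the series. The feed of INR cattle carried copper, cobalt, manganese and zinc as sulfates, and that of AAC cattle carried them as amino acid complexes, with both formulated for equal daily supply. In its healthy cattle, however, the paper reported that intake of these elements differed between AAC and INR. Intake of the BRD cattle was not examined here. All were commercial crossbred steers that had been transported over a long distance, and both groups received a respiratory virus vaccine and injectable doramectin at day 0. The AAC animals were 9 and 41 from pen 8 and 21 and 31 from pen 2. The INR animals were 17, 27, 29 and 39 from pen 7, 23 and 43 from pen 3 and 40 from pen 4. Supplements were assigned to pen groups, so supplement and pen group cannot be told apart. The day on which each animal was treated for BRD is not given in the sources used here.

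Whole blood RNA is a mixture. Neutrophils, lymphocytes and monocytes supply most mRNA, and immature red cells add globin and heme synthesis transcripts in amounts that vary widely between animals. B cells carry CD79A, CD79B and MS4A1 at the surface and depend on the transcription factors PAX5 and EBF1. Copper, zinc and manganese enter cells through dedicated carriers, zinc is buffered by metallothioneins, and cobalt acts as the metal of cobalamin. Fewer cells of a type and less RNA per cell cannot be told apart in these bulk samples.

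Total counts of the 11 libraries ranged from 36169143 to 48974508 (median 39771682) and did not separate the groups (exact permutation test over 330 splits, two-sided, p = 0.718). The model was fitted on all 70 BRD libraries and 18477 genes, with a biological coefficient of variation of 40.2%. Levels are given as TMM-scaled CPM, counts scaled to a common library size. A gene is called a differentially expressed gene (DEG) when the quasi-likelihood F-test of edgeR gave an FDR below 0.10. The p-values assume that libraries are independent, although libraries of the same animal at different days deviated together. Marker lists of neutrophil identity, B cells and alpha-beta T cells each summed to at least 1475 CPM in all 11 libraries. Globin genes made up 1.22% to 8.00% of the counts in AAC and 0.0398% to 3.98% in INR.

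At day 13, 174 genes were DEGs between AAC and INR, which is 0.942% of those tested. Of these, 58 were lower in AAC (0.314% of genes tested) and the rest were higher (0.628%). DESeq2 called 256 genes on the same libraries, 133 of them lower. With the correlation between libraries of the same animal estimated (0.315), limma called 159 genes, 91 higher and 68 lower, and these held 38 of the higher and 39 of the 58 lower genes. The genes higher in AAC spanned log2 fold changes of 0.27 to 9.77, and the lower genes spanned -0.28 to -5.42. Overlap of the groups differed between the directions. Among the higher genes, 16 had all 4 AAC animals above all 7 INR animals, against 40 of the 58 lower genes with all AAC animals below. Over all genes tested, 0.66% had AAC wholly above INR and 1.06% had AAC wholly below.

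Most higher genes had their top value in 1 animal. In 83 of the higher genes the highest library was AAC animal 21, in 22 it was AAC animal 41, in 6 it was AAC animal 9 and in 5 it was AAC animal 31. Without the 5 libraries of animal 21 the count fell from 174 to 9 genes, 7 higher and 2 lower. Without its day 13 library alone, an alternative chosen after seeing the data, 8 genes remained. The size of the difference in the lower genes moved little. Their median log2 fold change was -0.95 with animal 21 and -0.89 without it, and for none of the 58 did the value shrink by 50% or more. For the higher genes the median went from 2.17 to 0.74, and 14 changed sign. The 9 genes that remained without animal 21 were AFAP1L2, STRADB, RANBP10, KLHDC3, LOC104975822, LOC104970949 and RBM44, all higher in AAC, and TSPAN4 and ARMC6, both lower.

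**Figure D1:**
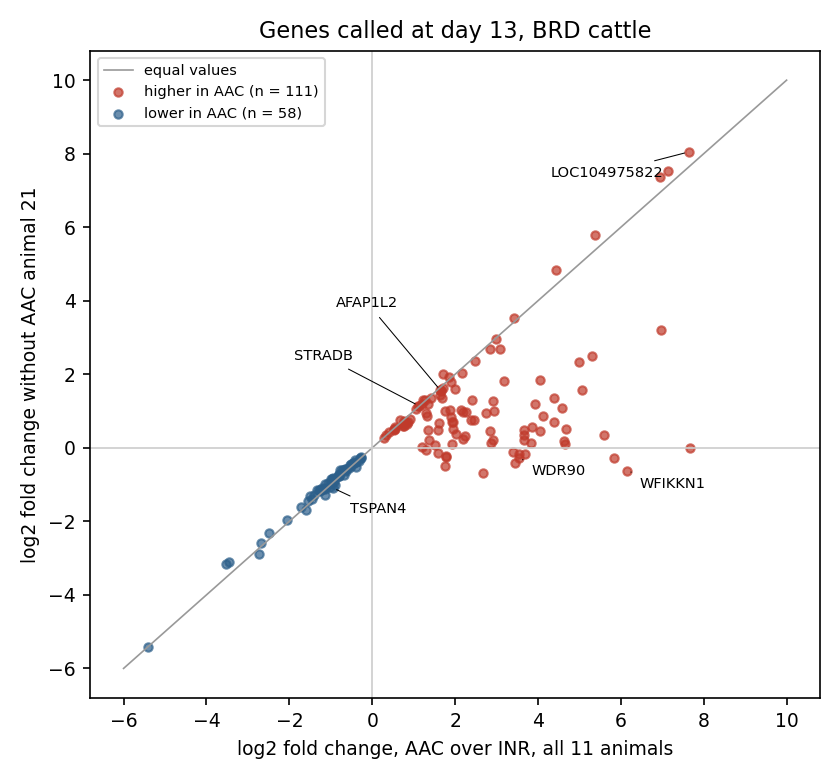
Log2 fold changes (AAC over INR, edgeR) of the DEGs of day 13 with all 11 animals (x axis) and without AAC animal 21 (y axis); 5 of the higher genes did not pass the count filter without it and are not drawn. The 58 lower genes lie along the line of equal values, and 59 of the higher genes drawn fell to 50% of their value or less.

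The strongest calls were genes that lie side by side on chromosome 25, next to the alpha-globin cluster. By the gene order of RefSeq on ARS-UCD2.0, a later build than the ARS-UCD1.3 used for the counts, they form a run of 11 tested genes from PIGQ to WDR24, of which 9 were DEGs. PIGQ acts in the first step of GPI anchor synthesis, RAB40C is a small GTPase, WDR90 is a ciliary and centriolar protein, RHOT2 tethers mitochondria for transport, and WDR24 is part of the GATOR2 complex of amino acid sensing. Chromosome 25 held 18 DEGs among 575 tested genes (3.13%), beside 0.942% of all genes tested.

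RAB40C was at 45.1, 1958, 44.2 and 48.5 CPM in AAC animals 9, 21, 31 and 41, and at 43.2, 50.47 and 57.8 CPM (lowest, median, highest) in INR. The log2 fold change was 3.39 ± 0.56 (SE, edgeR FDR = 0.000578). Only animal 21 was high, and the other 3 AAC animals lay inside the INR range. WDR90 stood at 19.1, 889, 13.2 and 17.5 CPM in AAC and at 17.1, 18.9 and 26.0 CPM in INR (log2 fold change 3.53 ± 0.53, edgeR FDR = 0.000102). MCRIP2, a stress granule protein, was at 11.8, 576, 10.24 and 12.7 CPM against 10.3, 13.998 and 14.7 CPM (3.54 ± 0.52, edgeR FDR = 0.000102). WFIKKN1, a secreted antagonist of growth differentiation factors, was barely expressed in 10 animals and reached 171 CPM in AAC animal 21, against at most 0.901 CPM in INR (6.15 ± 1.07, edgeR FDR = 0.00108). WDR24 (1.79 ± 0.30), RHOT2 (1.59 ± 0.29), PIGQ (2.24 ± 0.42), LOC516108 (1.77 ± 0.35) and METTL26 (1.31 ± 0.28) had the same single high library. METTL26, STUB1 and JMJD8, and the neighbours below, fall outside the rule for named genes and were chosen after their values were seen. STUB1 and JMJD8, inside the run, were at 167 and 111.6 CPM in animal 21 and did not pass the test (edgeR FDR = 0.104 and 0.15). The next gene, FBXL16, was at 0.697 CPM in animal 21 and between 0.0764 and 2.96 CPM in INR, so the run of high values ended there.

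None of the 9 DEGs from PIGQ to WDR24 was called by limma with the estimated correlation, where WDR90 and MCRIP2 were at 1.13 and 1.21 (adjusted p = 0.522 and 0.454).

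Between the alpha-globin genes and this run lie 10 tested genes, from LUC7L to CAPN15, which were high in more than 1 animal. RAB11FIP3, an effector of endosomal recycling, was at 77.2, 3357, 226 and 2312 CPM in AAC animals 9, 21, 31 and 41. In INR it ranged from 82.98 to 122.1 CPM in 6 animals and reached 2070 CPM in animal 39. AXIN1, a scaffold of the beta-catenin destruction complex, was at 54.3, 981, 100.7 and 635 CPM in AAC and at 54.5, 57.9 and 569 CPM in INR, with the highest INR value again in animal 39. AXIN1 and CAPN15 were the 2 DEGs among these 10 genes (edgeR FDR = 0.0768 and 0.0772). Animals 21, 41 and 39 also had the most alpha-globin RNA of the 11. HBA1 was at 53626 and 56993 CPM in AAC animals 21 and 41 and at 27832 CPM in INR animal 39. AAC animal 9 was next in HBA1, at 19342 CPM, and had the lowest RAB11FIP3 and AXIN1 values of the 11. Its sum over the 10 genes was 679 CPM, beside a median of 469 CPM over the whole series. The part of the globin level in the neighbours' level was not tested.

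**Figure D2:**
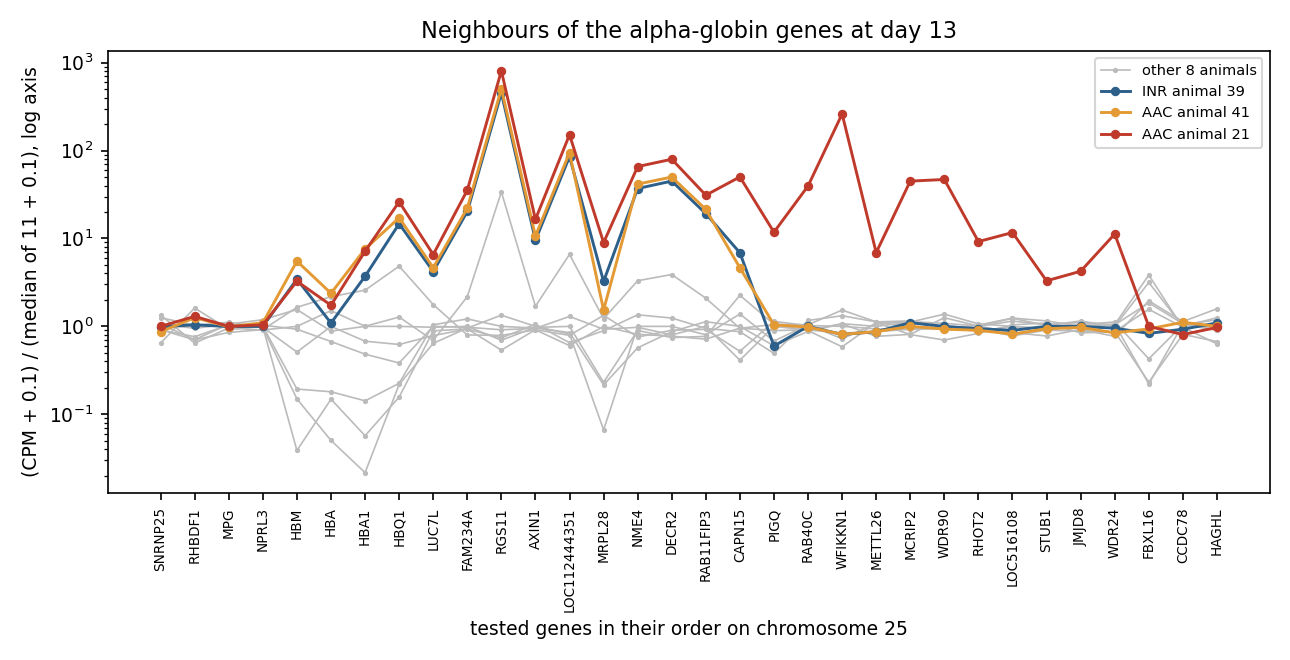
Level of each tested gene relative to the median of the 11 animals (CPM with 0.1 added, log axis), in RefSeq order along chromosome 25 on both sides of the alpha-globin genes; METRN, near 0 in all animals, is left out. AAC animals 21 and 41 and INR animal 39 are high together from LUC7L to CAPN15, and animal 21 alone stays high from PIGQ to WDR24.

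The high sum was seen at 1 sampling of animal 21. Summed over the 11 genes from PIGQ to WDR24, animal 21 reached 5258 CPM at day 13, which was 18.7 times the median of the whole series (281 CPM). The other 10 BRD animals compared here lay between 252 and 311 CPM. Only 3 further libraries of the series exceeded the median by more than 2 times. They were INR animal 27 with BRD at day 28 (920 CPM), the healthy INR animal 7 at day 13 (894 CPM) and AAC animal 9 with BRD at day 45 (739 CPM). Animal 21 itself was at 353, 257, 251 and 251 CPM at days 0, 28, 45 and 60.

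A second set of higher genes was made of connective tissue transcripts, again from animal 21. On a list of 20 fibroblast and matrix genes, 5 were DEGs, all higher in AAC, beside 0.942% of all genes tested. The median log2 fold change was 2.48 against -0.01 over all genes tested. COL6A1, a chain of collagen VI, was at 0.349, 64.5, 0.566 and 4.60 CPM in AAC and at 0.213, 0.669 and 3.28 CPM in INR (4.11 ± 0.98, edgeR FDR = 0.0421). COL6A2 stood at 42.8 CPM in animal 21 and at no more than 2.88 CPM elsewhere (edgeR FDR = 0.0512). The other DEGs of the list were FN1 (fibronectin, 196 CPM in animal 21), SPARC (137 CPM) and LUM (lumican, 21.1 CPM). Their highest INR values were 22.6, 4.58 and 0.611 CPM. The sum over the list was 3531 CPM in animal 21, 289 CPM in AAC animal 41, 106.5 and 99.2 CPM in AAC animals 9 and 31, and 92.99 to 237 CPM in INR. Without animal 21, 0 of 20 were called by edgeR and the median was 0.12, and with all animals limma called 0 and DESeq2 called 5. Animal 21 was also high at day 28 (1286 CPM), and at 176, 109.4 and 116.7 CPM at days 0, 45 and 60. Other animals had single higher sums at those days. The highest among the other AAC and INR animals with BRD was 225 CPM at day 0 (AAC animal 31) and 567 CPM at day 28 (INR animal 40). It was 349 CPM at day 45 (AAC animal 31) and 320 CPM at day 60 (INR animal 23).

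Other matrix and stromal genes followed the same animal, named here after their values were seen. MGP (27.5 CPM in animal 21, at most 0.302 CPM in INR), SFRP2 (26.3 CPM, at most 0.488 CPM), PTGDS, CCL2 and IGF1 were DEGs, as were the tissue macrophage genes TIMD4 (3.11 CPM, at most 0.226 CPM) and CD5L (7.67 CPM, at most 0.67 CPM). ECM2, a matrix protein, was at 3.21, 13.0, 2.29 and 2.82 CPM in AAC and at 0.677, 1.80 and 2.32 CPM in INR (1.62 ± 0.32, edgeR FDR = 0.00697). SERPINH1, the collagen chaperone, was the only DEG on a list of 22 heat shock chaperones, beside 0.942% of all genes tested. It was at 21.2 CPM in animal 21 and 2.09 to 4.64 CPM in INR (edgeR FDR = 0.0998). Its log2 fold change was 0.030 without animal 21 (edgeR FDR = 0.999), and limma with an estimated correlation did not call it (adjusted p = 0.534). Whether other cells were collected with the blood of animal 21 was not tested.

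Erythroid genes were higher in AAC over more than 1 animal, though few passed the test. Of 25 tested genes, 3 were DEGs, beside 0.942% of all genes tested. A positive log2 fold change was seen in 23 of the 25, and the median was 1.49 against -0.01 over all genes tested. CA2, the red cell carbonic anhydrase, was at 40.4, 69.98, 31.6 and 104.7 CPM in AAC and at 6.38, 18.9 and 50.1 CPM in INR (1.70 ± 0.44, edgeR FDR = 0.065). ERMAP, an erythroid membrane protein that carries a blood group, was at 1.62, 1.96, 1.95 and 4.09 CPM against 0.554, 0.928 and 2.199 CPM (1.22 ± 0.34, edgeR FDR = 0.0836). GYPB, a glycophorin, was at 7.25, 14.4, 7.86 and 16.6 CPM against 0.735, 1.29 and 5.14 CPM (2.49 ± 0.71, edgeR FDR = 0.0998), and all AAC animals were above all INR animals. Without animal 21, or without animal 41, 0 of the 25 genes were called by edgeR, with medians of 1.37 and 1.02. With all animals 16 of the 25 had an unadjusted p under 0.05, beside 9.53% of all genes, and DESeq2 and limma called 4 and 7.

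The globin genes themselves were not DEGs. HBA1 was at 19342, 53626, 7518 and 56993 CPM in AAC and at 163, 3620 and 27832 CPM in INR, a log2 fold change of 2.40 ± 1.12 (edgeR FDR = 0.474). HBA had all AAC animals above all INR animals, at 1677 to 2643 CPM against 55.8 to 1210 CPM (1.76 ± 0.97, edgeR FDR = 0.574). ALAS2, the first enzyme of heme synthesis in red cell precursors, was at 335, 895, 171 and 1031 CPM against 4.60, 81.4 and 420 CPM (2.40 ± 0.93, edgeR FDR = 0.31). INR animals 17, 40 and 43 were the low libraries, with erythroid sums of 1028, 1956 and 606 CPM, while INR animal 39 reached 41016 CPM and lay within the AAC range of 12873 to 85758 CPM. The sums differed between samplings. At day 0 they were 306 to 519 CPM in INR and 352 to 7135 CPM in AAC, and at day 28 they were 1071 to 19904 CPM in INR and 481 to 15339 CPM in AAC. The medians were 19080 CPM in AAC and 2779 CPM in INR at day 45 and 3050 and 1496 CPM at day 60, with overlapping ranges at both days.

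**Figure D3:**
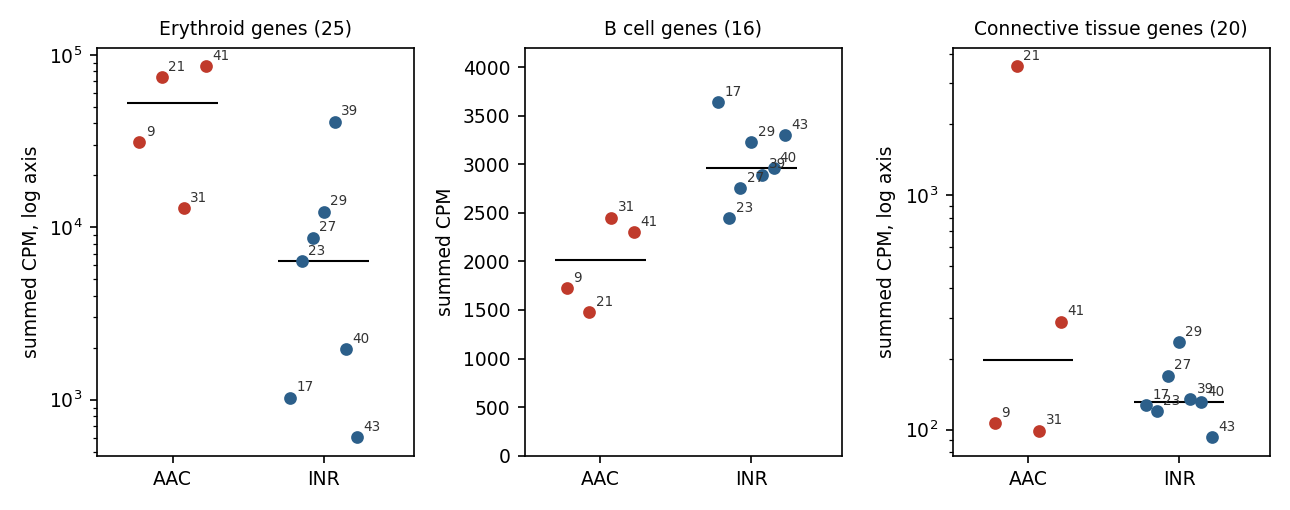
Summed CPM at day 13 of the tested genes of 3 lists, for each animal by number, with the group median as a line; the erythroid and connective tissue axes are log axes and the B cell axis starts at 0. AAC animal 21 alone is high in connective tissue genes (3531 CPM), 6 of 7 INR animals lie below all AAC animals in erythroid genes, and the lowest INR animal in B cell genes (2444 CPM) lies just under the highest AAC animal (2451 CPM).

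Several higher genes not on the erythroid list also had their highest values in AAC animals 21 and 41. STRADB, a pseudokinase that partners LKB1, was at 15.1, 21.7, 13.998 and 38.4 CPM in AAC and at 8.46, 9.44 and 15.02 CPM in INR (1.13 ± 0.19, edgeR FDR = 0.000968). Its highest INR value was that of animal 39, the INR animal with the most erythroid RNA. RANBP10, a subunit of the CTLH ubiquitin ligase, was at 50.96, 62.201, 42.9 and 92.8 CPM against 34.9, 43.6 and 48.6 CPM (0.52 ± 0.10, edgeR FDR = 0.00416). FKBP8, a mitochondrial immunophilin, was at 217, 345, 213 and 371 CPM against 135, 176 and 208 CPM (0.75 ± 0.14, edgeR FDR = 0.00482), with the groups apart. SLC25A39, the mitochondrial glutathione carrier (0.92 ± 0.19), BLVRB, a biliverdin reductase (1.21 ± 0.32), and FTH1, the ferritin heavy chain (0.74 ± 0.21), were also DEGs and were picked out after their values were seen. STRADB stayed a DEG with each of the 11 animals left out in turn.

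AFAP1L2, an adaptor protein of SRC signaling, was the only one of the 174 genes called in all 26 alternative analyses. It was at 28.1, 33.8, 22.4 and 30.1 CPM in AAC and at 4.99, 10.02 and 12.7 CPM in INR, a 3.14-fold difference (1.65 ± 0.31, edgeR FDR = 0.00303). All AAC animals were above all INR animals. The log2 fold change was 1.17 at day 0 (edgeR FDR = 0.099), and the change from day 0 did not pass the test (0.47, edgeR FDR = 1). EPS8, TPPP and GYG2, DEGs picked out after their values were seen, also had the groups apart, at 1.64 to 2.49, 19.5 to 23.1 and 13.27 to 16.6 CPM in AAC, against at most 0.996, 11.26 and 11.9 CPM in INR.

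Some calls came from a single library in another AAC animal. LOC104975822 was at 0 CPM in AAC animals 9, 21 and 31 and at 71.5 CPM in animal 41, with 0 to 0.201 CPM in INR (7.63 ± 1.52, edgeR FDR = 0.00697). Without animal 41 its log2 fold change was -5.01. RBM44, at 9.10 CPM in animal 41, and KLHDC3, at 7.52 CPM in animal 9, also named after their values were seen, had no other AAC library above 0.5 CPM. LOC107131209 instead had its high library in animal 21, at 88.16 CPM, and was at 0.993, 1.34 and 4.79 CPM in INR (3.45 ± 0.65, edgeR FDR = 0.00303). Without animal 21 its log2 fold change was -0.41.

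All 16 tested members of the B cell list had a negative log2 fold change, with a median of -0.72 against -0.01 over all genes tested. Some lists without a DEG were also one-sided, with 21 of 22 glycolysis genes positive and 34 of 38 type I interferon-stimulated genes negative. Others were mixed, such as MHC class I with 7 positive and 9 negative. EBF1 had all AAC animals below all INR animals, at 22.6, 19.8, 35.3 and 31.6 CPM against 35.4, 50.503 and 68.3 CPM, and did not pass the test (-0.91 ± 0.28, edgeR FDR = 0.143). CD79B (-0.92 ± 0.30), PAX5 (-0.82 ± 0.30), MS4A1 (-0.73 ± 0.27) and CD79A (-0.43 ± 0.16) had edgeR FDR values of 0.189 to 0.292. The summed B cell level was 1724, 1475, 2451 and 2305 CPM in AAC and 2444, 2958 and 3639 CPM in INR. Without animal 21 the median of the list was -0.61. With all animals 10 of the 16 had an unadjusted p under 0.05, beside 9.53% of all genes.

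Genes with a role in B cells that are not on the list were among the 58, named after their values were seen. PLCG2, the phospholipase downstream of the B cell receptor, was at 95.2, 81.004, 118.2 and 198 CPM in AAC and at 203, 225 and 307 CPM in INR (-1.01 ± 0.26, edgeR FDR = 0.0642), with no overlap. FCMR, the IgM Fc receptor, was at 81.03, 80.5, 190 and 110 CPM against 164, 224 and 384 CPM (-1.13 ± 0.32, edgeR FDR = 0.097). CLEC17A, a lectin of germinal center B cells (-1.72 ± 0.49), TCF3, the E2A transcription factor (-0.40 ± 0.11), and SWAP70, a guanine nucleotide exchange factor of activated B cells (-0.52 ± 0.15), had edgeR FDR values of 0.0919 to 0.0995. On the plasma cell list 0 of 10 genes were DEGs by edgeR, 0 had an unadjusted p under 0.05, and DESeq2 and limma called 0. BOLA-DYB, a class II histocompatibility beta chain, was the only DEG among 15 class II genes, beside 0.942% of all genes tested. It was at 22.7, 24.9, 52.4 and 39.1 CPM in AAC against 59.1, 77.7 and 114.24 CPM in INR (-1.28 ± 0.35, edgeR FDR = 0.0772). The class II list had a median of -0.18.

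Outside these groups the lower genes were diverse. TSPAN4, a tetraspanin of migrasomes, was at 30.4, 38.5, 24.3 and 26.96 CPM in AAC and at 41.8, 61.96 and 72.2 CPM in INR (-0.95 ± 0.20, edgeR FDR = 0.0118), and it stayed a DEG with each animal left out in turn. MMP28, a secreted matrix metalloproteinase, was at 11.96, 11.4, 12.9 and 16.5 CPM against 23.7, 29.1 and 36.3 CPM (-1.18 ± 0.26, edgeR FDR = 0.0189). EEF2KMT, which methylates elongation factor 2, had the smallest p among the lower genes, at 2.22, 1.96, 2.15 and 2.11 CPM against 2.86, 3.69 and 4.36 CPM (-0.80 ± 0.16, edgeR FDR = 0.00709). In all 3 genes the groups were apart.

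ABCC10, an ATP-binding cassette exporter, was at 45.1 to 53.4 CPM in AAC and 66.6 to 122.9 CPM in INR (-1.01 ± 0.24, edgeR FDR = 0.0439). FAM124A (-1.54 ± 0.33), L3MBTL1, a reader of methylated histones (-0.80 ± 0.19), ZMIZ2, a coactivator with a SUMO ligase domain (-0.50 ± 0.12), C29H11orf95 (-0.66 ± 0.16) and RABEP2, an endosomal RAB effector (-0.39 ± 0.10), were lower with the groups apart and edgeR FDR values of 0.0134 to 0.0529. The same held for LOC112442537, LOC112443917, LOC112447824 and LOC112449070, with log2 fold changes of -1.03, -1.40, -2.74 and -2.06. GH1, the growth hormone gene, was at 0.0645 to 0.255 CPM in AAC and 0.268 to 1.42 CPM in INR (-2.50 ± 0.60, edgeR FDR = 0.0439), a level near the bottom of the measured range.

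Genes that handle the supplemented elements showed few differences. On the list of metallothioneins and zinc exporters, 0 of 11 tested genes were DEGs (median 0.05). MT2A was at 3.01, 4.88, 4.72 and 2.80 CPM in AAC and at 1.24, 3.38 and 5.74 CPM in INR (0.16 ± 0.35, edgeR FDR = 0.952). MT1A was under 0.2 CPM in every animal (edgeR FDR = 0.924). On the lists for copper, cobalamin and manganese, 0 of 19, 0 of 15 and 0 of 13 genes were DEGs, with medians of 0.05, 0.01 and 0.11. MMACHC, which processes cobalamin after uptake, was at 2.14 to 2.79 CPM in AAC and 2.93 to 4.15 CPM in INR and did not pass the test (-0.44 ± 0.15, edgeR FDR = 0.205). DESeq2 called 0 genes on these 4 lists and limma called 1, on the manganese list. With the list of ZIP carriers added, 7 of 70 members had an unadjusted p under 0.05, beside 9.53% of all genes.

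The exception was SLC39A5, a zinc importer, the only DEG among 12 tested ZIP carriers, beside 0.942% of all genes tested. It was at 12.9, 18.2, 18.2 and 10.1 CPM in AAC and at 16.8, 27.8 and 35.9 CPM in INR (-0.91 ± 0.25, edgeR FDR = 0.0772). The groups overlapped, with AAC animals 21 and 31 above the lowest INR animal. At day 0 its log2 fold change was 0.51, and the change from day 0 to day 13 was -1.42, which did not pass the test (edgeR FDR = 0.362). SLC39A5 was no longer a DEG without any 1 of animals 9, 21, 41, 17, 29 and 40, with values of -0.75 to -1.02, nor by limma (adjusted p = 0.168).

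Of the 32 gene lists, 7 held at least 1 DEG and 25 held none. The medians of those 25 lay between -0.48, for 38 type I interferon-stimulated genes, and 0.49, for 14 eosinophil and basophil genes. The interferon list summed to 4253 to 6472 CPM in AAC and 3297 to 17917 CPM in INR, where animal 17 was the highest. MPO, the granule peroxidase of neutrophils, was at 6.13, 2.33, 10.6 and 13.1 CPM in AAC and at 0.451, 1.08 and 3.46 CPM in INR and did not pass the test (edgeR FDR = 0.113). LDHA (172 to 206 CPM against 123.7 to 159 CPM) and UCP2 (813 to 1041 CPM against 459 to 754 CPM) had AAC wholly above INR without passing the test (edgeR FDR = 0.341 and 0.342). ATP5F1E, a subunit of ATP synthase, was the only DEG among 76 respiratory chain genes (0.85 ± 0.24, edgeR FDR = 0.0907), a share near the 0.942% of all genes tested. It lost the call without animal 21 (0.70, edgeR FDR = 0.504) and with an estimated correlation in limma (adjusted p = 0.101), and kept it in 4 of 11 fits that left out 1 animal.

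The same animals had been sampled at day 0, when the cattle were enrolled in pens, and 60 genes were DEGs between the groups then (0.325% of those tested, 31 higher and 29 lower). Of the 174 DEGs of day 13, 19 were also DEGs at day 0, all in the same direction. These are the same animals, so the samplings are not independent. Among the 58 genes lower in AAC at day 13, 57 had a negative log2 fold change at day 0, with a median of -0.67. Of the higher genes, 94 had a positive log2 fold change at day 0, and their median was 0.48. Over all genes tested the median at day 0 was 0, and the share with each sign was not computed. MMP28 was 9.80 to 11.6 CPM in AAC and 20.1 to 41.5 CPM in INR at day 0 (-1.33, edgeR FDR = 0.0197), and XKRX was also a DEG at both days (-1.24 and -0.81). The B cell list had a median of -0.67 at day 0. The globin neighbours did not differ at day 0, with log2 fold changes of -0.25 for WDR90 and 0.09 for RAB40C.

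The change from day 0 to day 13 was not a DEG in any gene between AAC and INR (0 of 18477 by edgeR, 0% of those tested), while 314 genes (1.7%) had an unadjusted p under 0.05. DESeq2 called 24 genes and limma voom 0. With the animal as a replicate block, which pairs the 2 samplings of each animal, 1 gene was called, TRIM10, a ubiquitin ligase of red cell maturation (1.28, edgeR FDR = 0.0746). WDR90 (3.79, edgeR FDR = 0.173), MCRIP2 (3.43, edgeR FDR = 0.309) and RANBP10 (0.60, edgeR FDR = 0.362) had the smallest p without the block.

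Levels at the other samplings of the same animals kept some of these separations. The genes below were chosen from the DEGs of day 13, and the 5 days counted include day 13 and day 0. The share of all genes apart at as many days was not computed. MMP28, EEF2KMT and ABCC10 were each apart at 4 of 5 days. AFAP1L2 was apart at 3 of 5 days, with a lowest AAC value of 20.1 CPM and a highest INR value of 21.503 CPM at day 0. TSPAN4 and BOLA-DYB were apart at 2 of 5.

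**Figure D4:**
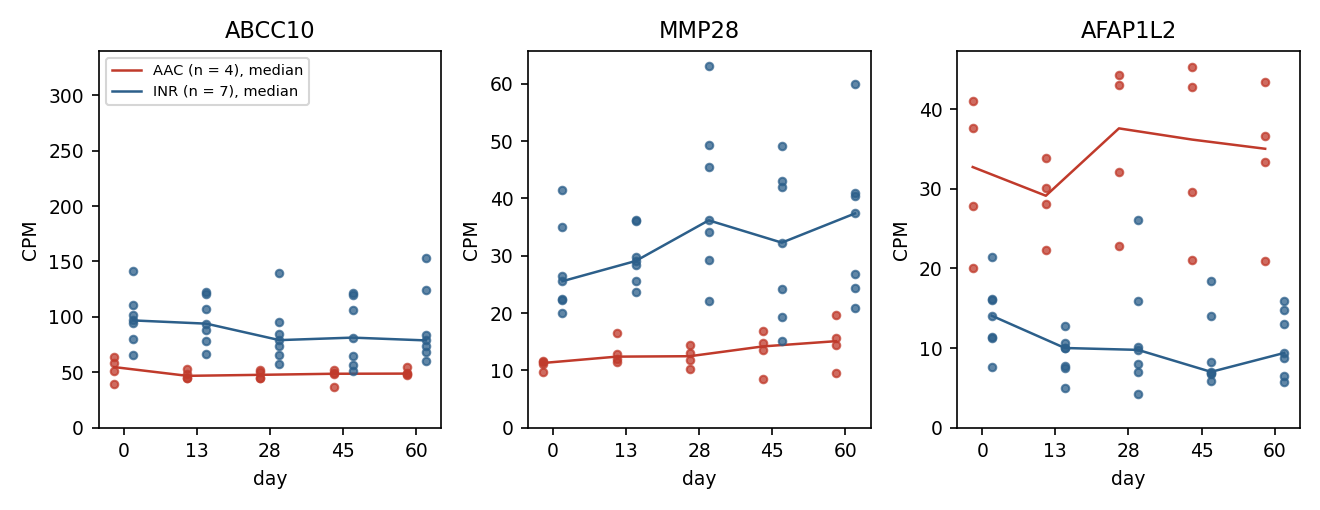
CPM of ABCC10, MMP28 and AFAP1L2 in the 4 AAC and 7 INR animals with BRD at days 0, 13, 28, 45 and 60, with the group median as a line; axes start at 0. The medians of the groups are already separated at day 0, and at day 13 no AAC animal overlaps an INR animal in any of the 3 genes.

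In cattle that stayed healthy, day 13 gave 57 DEGs between AAC (n = 3) and INR (n = 4), 0.312% of 18269 genes tested, 13 higher (0.0712%) and 44 lower (0.241%) in AAC. Of the 44 lower in healthy AAC cattle, 38 had a positive log2 fold change in the BRD cattle and 13 were DEGs there. Of the 13 higher in healthy AAC cattle, 9 had a negative value in the BRD cattle and 0 were DEGs there. The median of those 13 in the BRD cattle was -0.048. Over all genes tested in the BRD cattle, 0.942% were DEGs and the median was -0.01. The test of the difference between both contrasts called 392 genes (2.07% of 18937 tested), 341 of them higher in AAC relative to INR in BRD than in healthy cattle. The healthy comparison also had single high libraries. COL6A1 was at 88.7 CPM in the healthy INR animal 50 and at 0.326 to 2.22 CPM in the other 3 healthy INR animals, and WDR90 was at 151 CPM in the healthy INR animal 7 and at 15.8 to 24.8 CPM in the other healthy INR animals. Without the day 13 libraries of BRD animal 21 and healthy animal 50, an alternative chosen after seeing the data, the 392 genes became 2.

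TNS1, a focal adhesion protein, PI16, a peptidase inhibitor, and ENKUR, a ciliary adaptor, had the smallest p in the healthy cattle, with log2 fold changes of -2.71, -2.55 and -2.37. In the BRD cattle they were 0.74, 1.07 and 1.101 and not DEGs (edgeR FDR = 0.695, 0.143 and 0.394). The differences between the contrasts were 3.46, 3.62 and 3.48 (edgeR FDR = 0.00193, 4.61e-05 and 0.00126). PI16 was at 4.01, 20.432, 2.71 and 15.1 CPM in AAC and at 2.36, 4.69 and 9.28 CPM in INR with BRD, and at 57.9 CPM in the healthy INR animal 50. ENKUR did not rest on that animal, which was at 0.844 CPM, below the other 3 healthy INR animals. For AFAP1L2 the healthy value was -0.34 and the difference was a DEG (2.00, edgeR FDR = 0.0626).

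**Figure D5:**
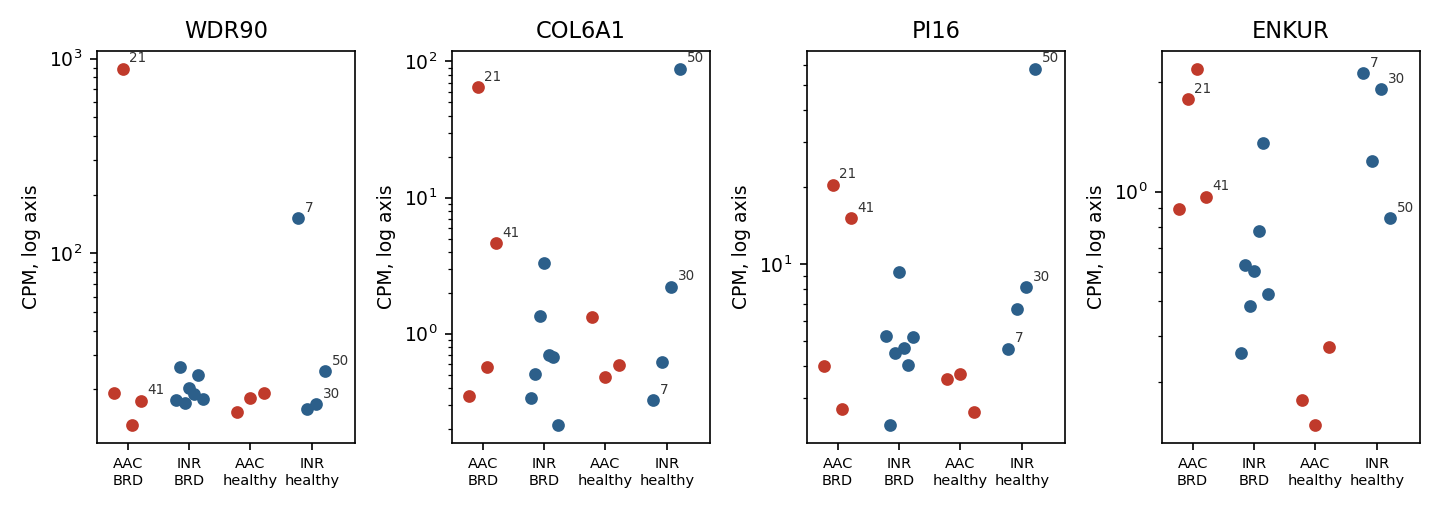
CPM at day 13 (log axes) of WDR90, COL6A1, PI16 and ENKUR in AAC and INR animals with BRD and in healthy AAC and INR animals; BRD and healthy libraries were scaled separately, and the numbers mark the animals named in the text where they stand out or lead. BRD animal 21 and healthy animals 7 or 50 hold the top values of WDR90, COL6A1 and PI16, while ENKUR is low in all 3 healthy AAC animals.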

How the data were processed

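Whole blood was collected in Tempus tubes, and stranded mRNA libraries were sequenced as paired reads. Per the labels, the authors trimmed reads with Trimmomatic 0.39, aligned them with HISAT2 to ARS-UCD1.3 and assembled and quantified them with StringTie 2.2.0. The deposited values are gene counts, which the authors derived from transcript coverage, so they are not direct tallies of reads and no interval for counting error was computed. Libraries of the same animal at days 0 and 13 deviated together in all 11 animals (r = 0.203 to 0.427), so the animal was used as a replicate block in an alternative for the change between days.

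Counts were tested with edgeR 4.0.16 in R 4.3.3 (TMM, common dispersion, quasi-likelihood F-test, FDR below 0.10, two-sided) with 1 mean per supplement and day on 70 BRD libraries. Healthy cattle were fitted separately, and the difference between both contrasts was fitted on all libraries together. Alternatives used DESeq2 1.42.0, limma 3.58.1, other filters, dispersions and sets of animals. Named genes were the 15 with the smallest p in each direction, called members of each list, the 2 smallest p of lists without a call, and the 3 smallest p of the other comparisons. The gene lists and the groups were chosen with earlier results of these data known. RefSeq (ARS-UCD2.0) gave gene order only, for 16465 of 18477 tested genes. Separate animals are replicates, and 4 against 7 limits the precision. Results that rest on 1 withheld item are not reported here.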

Additional observations from a re-analysis of the deposited data

Results flagged for a closer look

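In the 2 groups of day 13 with BRD, 90 group values were checked for a library far from the rest of its group, and 23 were found. Chance gives about 1 in 20 for normally distributed values chosen without regard to them. CPM need not be normally distributed, and these genes were named for a small p in the same comparison and share libraries. The count is therefore a description. Of these, 15 were in AAC animal 21. They were the CPM of the globin neighbours RAB40C (1958), WDR90 (889), MCRIP2 (576), WDR24 (499), RHOT2 (399), WFIKKN1 (171), LOC516108 (142) and PIGQ (83.9), of LOC107131209 (88.16), of the matrix genes SPARC (137), COL6A1 (64.5), COL6A2 (42.8), SERPINH1 (21.2) and ECM2 (13.0), and the connective tissue sum (3531).

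AAC animal 41 stood apart in LOC104975822 (71.5 CPM) and ERMAP (4.09 CPM). INR animal 39 stood apart in the erythroid sum (41016 CPM), CA2 (50.1 CPM), ERMAP (2.199 CPM) and STRADB (15.02 CPM), and INR animal 29 in LOC112443917 (20.1 CPM) and COL6A1 (3.28 CPM).

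Of 45 named genes, 23 had a difference in the AAC to INR log2 fold change of day 13 between BRD and healthy cattle by the edgeR test of the difference (FDR below 0.10), beside 2.07% of all genes tested. The genes were chosen for a small p in these libraries. Without the day 13 libraries of AAC animal 21 and INR animal 50, ENKUR and LOC104975822 stayed called and the other 21 did not. LOC104975822 had a single high library in each class, and neither was left out there. They were AAC animal 41 with BRD (71.5 CPM) and the healthy INR animal 7 (17.8 CPM). No other healthy AAC or INR library exceeded 0.177 CPM. The difference, BRD minus healthy, was 4.98 for MCRIP2, 5.13 for WDR90, 4.79 for RAB40C, 1.76 for WDR24, 10.20 for WFIKKN1, 2.09 for RHOT2, 3.16 for PIGQ, 6.51 for LOC107131209 and 14.08 for LOC104975822. Among matrix genes it was 3.84 for ECM2, 5.46 for FN1, 8.97 for COL6A1, 8.39 for COL6A2, 9.47 for SPARC and 3.3003 for SERPINH1. It was 1.04 for STRADB, 2.00 for AFAP1L2, 0.58 for RANBP10, 0.75 for FKBP8, -0.75 for ZMIZ2, 3.62 for PI16, 3.48 for ENKUR and 3.46 for TNS1.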

How the results depend on the processing

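The count of 174 DEGs at day 13 was 100 with trended dispersion, 54 at FDR below 0.05, 3 with only both groups of that day (AFAP1L2, MMP28 and TPPP), 9 with INR animals of pen 7 only, 92 with INR pens 3 and 4 only and 19 with AAC pen 8 only. DESeq2 gave 256 (133 lower in AAC, against 58 by edgeR). Leaving out each animal gave 9 to 232, with 9 without AAC animal 21 and 50, 95 and 88 without INR animals 17, 23 and 40. It was 8 without the day 13 library of animal 21, added after seeing the data. The 60 of day 0 became 32 with trended dispersion, 7 at FDR below 0.05, 12 with no filter, 290 by DESeq2, 1.2e+02 by limma (58 higher and 65 lower), 223 with all libraries together, 0 with only both groups, 4 and 36 with INR pen 7 or pens 3 and 4, 275 and 2 with AAC pen 2 or pen 8, and 1 to 208 leaving out animals. The change from day 0 gave 24 genes by DESeq2, 10 with all libraries together, 8 with AAC pen 2, 0 to 10 leaving out animals, and 1 with the animal as a replicate block. The 57 healthy DEGs became 10 at FDR below 0.05, 37 with no filter, 426 by DESeq2, 18 by limma, 0 to 733 leaving out animals and 8 without the day 13 library of INR animal 50. The 392 genes of BRD minus healthy became 244 with trended dispersion, 256 at FDR below 0.05, 248 with the stricter filter, 40 by limma, 10 to 697 leaving out animals, 38 without the day 13 library of animal 21 and 2 without it and that of INR animal 50. The cause of these shifts was not tested.

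Single genes changed sign with AAC pen 8 only, without animal 21 and without its day 13 library: MCRIP2 (-0.10, -0.18, -0.18), WDR90 (-0.14, -0.29, -0.29), RAB40C (-0.090, -0.12, -0.12), WDR24 (-0.22, -0.21, -0.21), WFIKKN1 (-0.46, -0.63, -0.63), RHOT2 (-0.10, -0.15, -0.16), LOC107131209 (-0.12, -0.41, -0.41) and LOC516108 (-0.40, -0.26, -0.27). SERPINH1 was -0.034 with AAC pen 8 only, and LOC104975822 was -5.01 with AAC pen 2 only and without animal 41. Their highest values on leaving out 1 animal were 3.96 for MCRIP2 and for WDR90, 3.81 for RAB40C, 2.14 for WDR24 and for LOC516108, 6.59 for WFIKKN1, 1.92 for RHOT2, 3.88 for LOC107131209 and 8.05 for LOC104975822. Pen groups of 2 or 3 animals limit what these alternatives can detect.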
